A study of Mus musculus with 12 samples.

Results

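The sequences described here are the short 5′ fragments of the glutamate tRNA with anticodon CTC in mouse sperm. They are of 29 nt or less and align from the first base of a template defined below. They were chosen by measured values. The reference fragment of 29 nt is the sequence with the highest mean normalised value over the 12 libraries, and the template of 34 nt is the most abundant sequence of 34 nt or more that begins with it. A listed sequence belongs here if it aligns inside the template with an edit distance of 2 or less, from base 1, and is 29 nt or less. This gave 292 of the 2971 sequences in the deposited table. Their abundance and length set the choice and are given as description.

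Sperm were taken from caudal epididymis and vas deferens, sonicated mildly to part heads from tails, and the fraction whose histones had been replaced was collected through 82% Percoll. The 4 groups of 3 libraries came from wild-type males on control diet, wild-type males on low protein diet, ATF7+/- males on control diet and ATF7+/- males on low protein diet. All males were on their diet from 3 to 12 weeks of age. The number of animals behind a library and the way the ATF7 allele was made are not stated in the labels. ATF7 is a transcription factor of the ATF/CREB family that acts in chromatin silencing and stress responses.

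Transfer RNAs are cut in or near the anticodon loop by ribonucleases such as angiogenin, which gives a 5′ piece and a 3′ piece. Shorter 5′ fragments end further upstream, in the anticodon stem or the D arm. Mature sperm gain much of their tRNA-fragment load while they pass through the epididymis, and 5′ fragments of glycine and glutamate tRNAs are among its most abundant members. Changed levels of such fragments have been studied as carriers of paternal diet effects.

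The family name comes from its longer sequences. The most abundant 36-nt sequence that begins with the template carries the anticodon CTC at bases 34 to 36. The 29-nt fragment stops 4 bases before the anticodon. No sequence of 29 nt or less reaches the anticodon, so a tRNA with the same first bases and another anticodon cannot be told apart from this one. Fragments that match the template throughout are called exact and are named by their length.

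Changed sequences are named by template base, position and read base, with positions counted from 1 at the 5′ end of the template and T written for U. T1G is thus a sequence with G in place of the first T. A sequence with both T5C and G6T is called the 5′ variant.

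In the RefSeq annotation of GRCm38.p6, 12 nuclear genes are named for tRNA-Glu-CTC, each 72 bp long. No fragment was assigned to 1 of these genes.

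Depth ran from 2198744 to 6870039 reads per library (authors' totals), of which 97.5 to 98.2% are listed. Levels are in RPM, the authors' counts scaled to their total. All 292 sequences had reads in every library, with at least 4 counts in a library and 248 in all. Replicate 3 of each control-diet group stood apart from the other control-diet libraries, with more of the glutamate reads in short fragments (65.2% and 70.9%, against 46.3 to 53.7% in the other 4). The low-protein libraries lay between, at 58.4 to 64.6%. No label gives a cause or a batch for the split among control-diet replicates. The table lists only tRNA-like sequences, so the sperm label could not be checked against markers. Nothing in the labels says whether replicates came from separate animals, so p-values measure the spread between these libraries, which may be technical.

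Most reads of the glutamate family were in the short fragments. Their summed level was 255588 RPM on average, which was 26.1% of listed reads and 58.6% of reads of the glutamate family. The family has 822 sequences in all. Its rule leaves out pieces from beyond the template and fragments much longer than it. The 58.6% is therefore not a share of all fragments of this tRNA. In wild-type sperm the sum was 212127, 204980 and 300239 RPM on control diet, and 268081, 287410 and 282572 RPM on low protein diet. In ATF7+/- sperm it was 235110, 263145 and 261155 RPM on control diet, and 275715, 228957 and 247564 RPM on low protein diet. The highest and the lowest of the 12 values were both from wild-type males on control diet. The diet groups overlapped in each genotype.

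The 29-nt fragment was the most abundant sequence of the table, at 147849 RPM. It was measured at 116731, 115883 and 167198 RPM in wild type on control diet, and at 157845, 166113 and 162288 RPM in wild type on low protein diet. ATF7+/- libraries gave 138174, 158545 and 146897 RPM on control diet, and 159433, 138548 and 146530 RPM on low protein diet. The 3 low-protein wild-type libraries lay close together, at 162082 ± 4138 RPM (SD, n = 3), while those of wild type on control diet ranged widely, at 133271 ± 29385 RPM (SD, n = 3). The fragment made up 55.0 to 60.5% of the reads of the short fragments in every library.

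Reads of the short fragments were concentrated in 3 lengths. Sequences of 29 nt took 73.0% of them, spread over 158 sequences, those of 28 nt took 19.4% over 78 sequences, and those of 27 nt took 7.51% over 50 sequences. The exact 28-nt and 27-nt fragments averaged 35315 and 15117 RPM. Just longer than the limit, the exact 30-nt, 31-nt, 32-nt and 33-nt fragments averaged 45136, 43996, 4866 and 15112 RPM. The 32-nt fragment was thus rarer than the fragments 1 base shorter and 1 base longer. The other 6 sequences, of 15, 20, 22, 23, 25 and 26 nt, were all exact and rare. The 20-nt fragment, which ends in the D arm, was the most abundant of these at 59.7 RPM (range 44.2 to 80.4 RPM over the libraries), and the remaining 5 lay between 6.69 and 33.9 RPM. The table as a whole lists 21 sequences under 27 nt.

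The limit of 2 edits cut off little. Sequences with 2 edits numbered 89 and reached 8199 RPM, while 5 sequences of 29 nt or less with 3 edits from base 1 fell outside it, the highest at 50.3 RPM. The 9 exact fragments held 77.6% of the reads. The 283 sequences below 1% of the 29-nt fragment's level had a small part of the reads each, and the median over all 292 was 23.7 RPM. These 292 are thus a few abundant molecules together with many rare sequences that differ from them by 1 or 2 edits.

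A different last base was the most frequent change. The 8 sequences with that change alone held 9.73% of the reads of the short fragments, from 8.57 to 12.5% over the libraries. Among 29-nt sequences with the first 28 bases intact, 88.9% ended in the template's G, 8.67% in A, 1.90% in T and 0.498% in C. The one ending in A, G29A, averaged 14423 RPM, with the lowest library at 12131 and the highest at 16501 RPM. Among the 292 it ranked above every other sequence with an edit.

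Which base took the last place followed the template base there. At 28 nt, where the template has G, A was again the most frequent mismatch, at 11.6% of the 4 possible ends. At 27 nt, where the template has C, T led at 5.25% and A followed at 1.80%. The longer fragments outside the limit kept this pattern, with T at 13.2% for C in position 30, A at 11.7% for G in position 31, T at 18.9% for C in position 32 and C at 9.82% for T in position 33. The leading mismatch was thus the transition, the change within purines or within pyrimidines, at all 7 lengths. A mismatched last base could also be read as a 1-base-shorter fragment with 1 base added, and both readings cannot be told apart for a single sequence.

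The same substitutions were rare once they were no longer at the end. G29A was 9.75% of the exact fragment at 29 nt, but 0.113% at 30 nt, 0.101% at 31 nt and 0.0783% at 33 nt. G28A fell from 13.3% at 28 nt to 0.125% at 29 nt. C27T fell from 5.65% at 27 nt to 0.110% at 28 nt and 0.0857% at 29 nt. Each fall was seen in every library, since the lowest value at the end (8.51%, 11.8% and 4.40%) was far above the highest value inside (0.133%, 0.158% and 0.137%). Set against the fragment 1 base shorter, the 29-nt sequence ending in A was 31.3 to 54.4% of the exact 28-nt fragment over the libraries. Those shares were lowest in replicate 3 of wild type on control diet and highest in replicate 2 of ATF7+/- on low protein diet.

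Changes at inner positions were many and faint. At 29 nt all 81 of the 81 possible substitutions at positions 2 to 28 were listed, and together they came to 5.80% of the 29-nt fragment. The 170 sequences of 27, 28 and 29 nt with 1 inner substitution held 4.36% of the reads of the short fragments, with a narrow range of 4.17 to 4.48% over the 12 libraries. The most frequent of the 81 was G6A at 0.382% of the 29-nt fragment, then T5C at 0.288%, T11C at 0.260% and A24G at 0.253%. C12G was the rarest at 0.00572%. The 27 transitions had a median of 0.140% and held 68.8% of these reads, while the 54 transversions had a median of 0.0185%.

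Inner substitutions kept their share of the parent fragment across lengths. Between 28 and 29 nt the logarithms of 49 shared substitution shares had a Pearson correlation of 0.993, and between 29 and 31 nt 63 shares gave 0.997. Between 27 and 29 nt the correlation over 38 shares was 0.934. These points come from the same 12 libraries and the same parent molecule, so the correlations only describe how alike the profiles were. A24G stood out at 27 nt, where it was 0.556% of the exact fragment against 0.267% at 28 nt and 0.253% at 29 nt.

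At the first base, C was the most frequent replacement. T1C was 0.399% of the 29-nt fragment, T1A was 0.265% and T1G was 0.0662%. The share of T1C ran only from 0.383 to 0.416% over the 12 libraries, and it was 0.398% at 28 nt and 0.399% at 27 nt. In all, 9 sequences differed from the template in the first base alone, and they held 0.569% of the reads of the short fragments.

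The 5′ variant from base 1 held 4.33% of the reads of the short fragments in its 3 exact lengths, close to the 4.36% of all single inner substitutions. At 29 nt it averaged 8199 RPM, with 1973 RPM at 28 nt and 898 RPM at 27 nt. T5C alone averaged 426 RPM and G6T alone 156 RPM at 29 nt, both far below the sequence with both changes. Together with the 3 lengths that can be read as lacking its first base it held 7.10%, from 6.66 to 7.40% over the libraries.

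The variant kept a nearly fixed proportion to the template sequence in all groups. At 29 nt it was 5.23, 5.70 and 5.72% of the 29-nt fragment in wild type on control diet, and 5.56, 5.30 and 5.65% in wild type on low protein diet. In ATF7+/- it was 5.45, 5.29 and 5.74% on control diet, and 5.71, 5.63 and 5.52% on low protein diet. The groups overlapped in full. Over the lengths from 27 to 33 nt and all libraries the share lay between 4.93 and 6.21%.

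What can be read as loss of the first base differed between the variant and the template sequence, a comparison chosen after their values were seen. The sequence that lacks the variant's first T is placed at base 1 by the alignment, because its remaining bases fit there with 2 edits. It can equally be read as the template with T1C and a deleted G, and the sequence alone cannot tell these readings apart. To base 29 it was 54.6 to 57.0% of the variant with the first T in all 12 libraries, and to base 28 it was 52.8 to 59.2%. The 29-nt fragment lacking its own first T, which is not among the 292, was 1.22 to 15.2% of the 29-nt fragment. That share was 15.2, 7.54 and 2.24% in wild type on control diet, 1.26, 1.79 and 2.30% in wild type on low protein diet, 7.72, 5.16 and 2.03% in ATF7+/- on control diet, and 3.64, 1.22 and 2.29% in ATF7+/- on low protein diet. One ratio was thus flat over the libraries while the other varied widely, with its highest values in replicates 1 and 2 of the control-diet groups.

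Diet and genotype were compared sequence by sequence with edgeR's quasi-likelihood test over all 2971 sequences. A sequence counts as changed at a Benjamini-Hochberg adjusted p under 0.05. None of the 292 short fragments passed in any of the 6 comparisons. The background share of all sequences that passed was 2.52% for diet in wild type, 0.101% for diet in ATF7+/-, 0% for genotype on control diet, 0.202% for genotype on low protein diet, 0% for the interaction of diet with genotype and 11.9% for diet over both genotypes. By limma none passed either. By DESeq2 1 passed for diet in wild type, 3 for genotype on low protein diet and 0 in the other comparisons. The share of all sequences that passed by DESeq2 is not given here.

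At an unadjusted p under 0.05 the share of short fragments was below the background in all 6 comparisons. For diet in wild type 6 were past it, all higher, which is 2.05% against 21.8% of all sequences. For diet in ATF7+/- there were 2, which is 0.685% against 16.9%. For genotype on control diet there were 4, which is 1.37% against 4.21%, and for genotype on low protein diet 21, which is 7.19% against 17%. The interaction had 3, which is 1.03% against 9.83%, and diet over both genotypes had 4, which is 1.37% against 27%. Of the 21 for genotype on low protein diet, 19 were lower in ATF7+/-, and 18 of the 21 were of 28 nt.

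The 29-nt fragment itself gave small differences in every comparison. Low protein diet against control diet gave 0.28 in wild type on the log2 scale (SE 0.18, edgeR adjusted p = 0.400) and 0.0029 in ATF7+/- (SE 0.18, adjusted p = 0.996). For the interaction it was -0.28 (SE 0.26, adjusted p = 0.708). Genotype, ATF7+/- against wild type, gave 0.15 on control diet (SE 0.18, adjusted p = 0.969) and -0.13 on the other diet (SE 0.18, adjusted p = 0.772). The wild-type diet difference was 0.48 without replicate 3 on control diet, and it was -0.045 when replicates 1 and 2 on control diet were left out of both genotypes. The latter setting, also used below, keeps only replicate 3 in each control-diet group, so those groups have no spread of their own.

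For diet in wild type the short fragments had a median log2 fold change of 0.20, with 232 of 292 above 0, against a median of -0.096 over all 2971 sequences. With replicates 1 and 2 on control diet left out of both genotypes, that median was -0.084. It was 0.43 without replicate 3 of wild type on control diet and 0.11 without replicate 2. The 3 sequences with the lowest p were T1G at 29 nt (0.65, SE 0.22, edgeR adjusted p = 0.107), C2G at 29 nt (0.78, SE 0.27, adjusted p = 0.115) and the sequence with C at both variant positions, T5C with G6C (0.59, SE 0.22, adjusted p = 0.139). C2G was at 7.89, 8.88 and 9.61 RPM on control diet and at 11, 17.7 and 16.5 RPM on low protein diet, without overlap. It was picked by lowest p, which favours such separation, and the share of all sequences that separate is not given. Without replicate 3 of wild type on control diet 8 of the 292 passed, all higher, against a background of 19.4% of all sequences, and T1G at 29 nt (0.86) and at 28 nt (0.73) were among them.

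Diet in ATF7+/- gave a median of 0.015 over the short fragments, with 153 of 292 above 0, and 0.031 over all sequences. Under other scalings of the libraries the first median was -0.036 (TMM) and -0.054 (median ratio), against -0.017 and -0.035 over all sequences. With 1 library left out the first median ran from -0.052 to 0.078. Lowest in p were T1G at 28 nt (-0.54, SE 0.22, edgeR adjusted p = 0.273), T1A with G29T (0.67, SE 0.27, adjusted p = 0.274) and T1G with G29A (0.51, SE 0.24, adjusted p = 0.299). All 3 separated the groups without overlap, yet none passed. They were picked by lowest p, which favours such separation, and the share of all sequences that separate is not given. The levels of the 3 were low: T1A with G29T lay between 5.55 and 12.1 RPM in these 6 libraries.

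For genotype on control diet the median over the short fragments was 0.036, with 168 of 292 above 0, against -0.055 over all sequences, and the smallest adjusted p was 0.965 by edgeR. That median had no stable direction: with 1 library left out it ran from -0.079 (without replicate 2 of wild type on control diet) to 0.23 (without replicate 3), and with replicates 1 and 2 on control diet left out of both genotypes it was -0.19. T26G at 29 nt was 12.7, 12.3 and 15.2 RPM in wild type and 21.9, 25.9 and 17.7 RPM in ATF7+/- (0.71, SE 0.25, adjusted p = 0.965). T13C with G28A (-0.75, SE 0.27) and T11C with G28A (-0.55, SE 0.20) were the lowest in p among those below 0, at the same adjusted p.

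Between genotypes on low protein diet the median log2 fold change of the short fragments was -0.13, with 82 of 292 above 0, against 0.11 over all sequences. It was -0.066 without replicate 2 of ATF7+/- on low protein diet. With TMM it was -0.21 against 0.035 over all sequences, and with median-ratio scaling -0.23 against 0.011, so its distance from the median of all sequences was -0.24 in each case. Sequences of 28 nt had a median of -0.41, with 4 of 78 above 0, and those of 29 nt a median of -0.077. The exact 28-nt fragment was at 37329, 42703 and 43011 RPM in wild type and at 35967, 25740 and 29391 RPM in ATF7+/-, without overlap (-0.43, SE 0.22, edgeR adjusted p = 0.335). How many of all sequences separate the genotypes on this diet is not given. The ATF7+/- libraries of this diet were all deeper, at 4828916 to 6870039 reads against 2278880 to 2874170 in wild type, and the part of depth was not tested.

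T26G at 27 nt was the largest difference among the 3 with the lowest p on that diet. It was at 3.51, 2.44 and 2.17 RPM in wild type and at 9.94, 7.71 and 9.04 RPM in ATF7+/- (1.71, SE 0.43, edgeR adjusted p = 0.113), with as few as 5 counts in a library. The control-diet libraries gave 2.29, 4.23 and 5.63 RPM in wild type and 7.88, 6.61 and 3.64 RPM in ATF7+/-, where the groups overlapped. A fit of only the 2 low-protein groups passed 9 of the 292, with 2 higher and 7 lower in ATF7+/-, against a background of 12.6% of sequences in that fit. It passed T26G at 27 nt (adjusted p = 0.0112) and T1G at 28 nt (adjusted p = 0.00463).

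T1G, with G in place of the first T and no other change, was unlike the other sequences named here in how its diet groups separated in the 2 genotypes. At 28 nt it was at 19.9, 22.0 and 29.8 RPM in wild type on control diet and at 33.8, 37.2 and 33 RPM on low protein diet. In ATF7+/- it was at 21.9, 21.3 and 25.0 RPM on control diet and at 14.7, 16.4 and 15.4 RPM on low protein diet. Every low-protein library was above every control library in wild type and below every one in ATF7+/-. The share of all sequences that separate in this way is not given here. The diet difference was 0.54 (SE 0.22, edgeR adjusted p = 0.168) in wild type and -0.54 (SE 0.22, adjusted p = 0.273) in ATF7+/-, and their difference, the interaction, was -1.08 (SE 0.31, adjusted p = 0.305). None of these passed.

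The contrast of genotypes on low protein diet came closest for that sequence, at -1.16 (SE 0.22, edgeR adjusted p = 0.0541). It passed with TMM scaling (adjusted p = 0.0387), with median-ratio scaling (0.0416), with a floor of 10 RPM on the mean (0.0321) and by DESeq2 (2.3e-04). It also passed without replicate 1 (0.0290) or replicate 3 (0.0161) of wild type on control diet, or replicate 3 of ATF7+/- on control diet (0.0254). Leaving out any other single library gave no pass, and this includes each library of the groups compared. With the replicate block the sequence had an adjusted p of 0.0934.

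T1G at 29 nt also separated the diets in opposite ways. It was at 71.8, 71.9 and 106 RPM in wild type on control diet and at 139, 143 and 110 RPM on low protein diet, and in ATF7+/- at 102, 94.2 and 100 RPM on control diet and at 85.3, 73.8 and 78.2 RPM on low protein diet. Again neither genotype's diet groups overlapped, and the share of all sequences that separate in this way is not given. The diet difference in ATF7+/- was -0.32 (SE 0.22, edgeR adjusted p = 0.429), genotype on low protein diet gave -0.72 (SE 0.22, adjusted p = 0.140) and the interaction -0.97 (SE 0.31, adjusted p = 0.402).

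As a share of the 29-nt fragment, which does not depend on scaling between libraries, T1G was 0.0615, 0.0620 and 0.0632% in wild type on control diet and 0.0881, 0.0861 and 0.0677% on low protein diet. In ATF7+/- the shares were 0.0739, 0.0594 and 0.0681% on control diet and 0.0535, 0.0533 and 0.0534% on low protein diet. The ATF7+/- low-protein libraries were thus the lowest of all at this length. At 28 nt the share of the exact fragment was 0.0409, 0.0639 and 0.0524% in ATF7+/- on low protein diet and 0.0693, 0.0629 and 0.0683% on control diet, so the diet groups of that genotype overlapped. In wild type the 28-nt shares were 0.0905, 0.0872 and 0.0767% on low protein diet, all above the 0.0655, 0.0733 and 0.0631% on control diet. Over the same 12 libraries T1C and T1A overlapped between the diets in each genotype, and T1C at 29 nt had a log2 fold change of -0.11 (SE 0.21, edgeR adjusted p = 0.833) for genotype on low protein diet.

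Other lengths with G at the first base were looked at after these values were seen. At 27 nt, with a mean of 10.7 RPM, T1G overlapped between all groups compared, and genotype on low protein diet gave -0.48 (SE 0.37, edgeR adjusted p = 0.534). Outside the limit, T1G at 30, 31 and 33 nt was lower in every ATF7+/- library than in every wild-type library on low protein diet, by -0.73 (SE 0.27, adjusted p = 0.205), -1.04 (SE 0.31, adjusted p = 0.133) and -0.96 (SE 0.32, adjusted p = 0.169). The opposite separation by diet was not seen at these lengths: the diet groups overlapped at 30 and 31 nt in both genotypes and at 33 nt in ATF7+/- (0.026, SE 0.33, adjusted p = 0.974). These sequences share their libraries with the shorter ones, so they are not separate replicates of the difference.

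Over both genotypes, low protein diet gave a median log2 fold change of 0.11 over the short fragments, with 217 of 292 above 0, against -0.0077 over all sequences. With replicates 1 and 2 on control diet left out of both genotypes the first median was -0.044. It was 0.19 without replicate 3 of wild type on control diet and 0.061 without replicate 2. The 3 lowest p were of sequences with G29A and a second change: T1G with G29A (0.49, SE 0.17, edgeR adjusted p = 0.0844), T26A with G29A (0.46, SE 0.18, adjusted p = 0.110) and T16C with G29A (0.34, SE 0.14, adjusted p = 0.138). The interaction had a median of -0.21 over the short fragments against 0.16 over all sequences. The first of these was -0.41 without replicate 3 of wild type on control diet, -0.13 without replicate 1 and -0.11 without replicate 2. With replicates 1 and 2 on control diet left out of both genotypes it turned to 0.076, against 0.20 over all sequences. For the interaction the third sequence by p, a 29-nt one with a deletion near the 5′ end, was at -0.78 (SE 0.34, adjusted p = 0.477).

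The balance between the 29-nt fragment and its 30-nt neighbour was followed within each library, as a ratio that needs no scaling. It was 2.60, 2.52 and 4.04 in wild type on control diet and 3.27, 3.60 and 3.45 in wild type on low protein diet. In ATF7+/- it was 2.60, 2.63 and 4.88 on control diet and 4.03, 3.20 and 3.53 on low protein diet. Replicate 3 of each control-diet group was above all low-protein libraries of its genotype, and replicates 1 and 2 were below them. The log2 ratio differed by 0.21 with diet in wild type (p = 0.40) and by 0.15 in ATF7+/- (p = 0.60), in exact permutation tests, two-sided, where 3 against 3 libraries cannot go below 0.10.

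The ratio of the 28-nt to the 29-nt fragment separated the genotypes on both diets. Its means were 0.267 ± 0.013 in wild type on control diet, 0.253 ± 0.015 in wild type on low protein diet, 0.231 ± 0.018 in ATF7+/- on control diet and 0.204 ± 0.020 in ATF7+/- on low protein diet (SD, n = 3). ATF7+/- libraries were below all wild-type libraries on each diet. The log2 difference was -0.21 on control diet and -0.31 on the other diet, each with the smallest possible p of 0.10 in the exact permutation test and 0.25 after Benjamini-Hochberg adjustment over 15 ratio tests.

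The ratio of the 33-nt to the 29-nt fragment was highest on average in wild type on low protein diet. Its means were 0.093 ± 0.012 in wild type on control diet, 0.132 ± 0.024 in wild type on low protein diet, 0.081 ± 0.021 in ATF7+/- on control diet and 0.100 ± 0.011 in ATF7+/- on low protein diet (SD, n = 3). The log2 difference with diet was 0.50 in wild type (p = 0.10) and 0.33 in ATF7+/- (p = 0.20), in exact permutation tests. Over both genotypes it was 0.41, with an exact permutation p of 0.010 within genotypes and 0.15 after adjustment over the 15 tests, so it did not pass.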

How the data were processed

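Small RNA libraries (NEBNext kit, 36-bp paired-end reads, per the labels) gave 1 deposited table of sequences with a length, a raw read count and a normalised value per library. The deposited counts are whole reads per sequence. The authors' normalised values are RPM, counts scaled to 1 total per library, and these totals (2198744 to 6870039) were recovered from the 2 columns. The lengths are the authors' own column, per the file headers. The genome build was mm10, per the submitters' processing notes. Aligner, counter and sequence filter were not given in the sources used here. No column was left without a sample (0).

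Sequences were aligned with edlib 1.3.9.post1. The letters of the fragments are not reported here. Members and lists were chosen with earlier results of these data known. Named are the 29-nt fragment, exact fragments of 29 nt or less, the 10 most abundant members, the most abundant member at each of the 5 positions with most single-substitution reads, and per comparison the members past the threshold or the 3 with the lowest p. Other sequences named were chosen after their values were seen. Counts were fitted with edgeR 4.0.16 quasi-likelihood (R 4.3.3) over the 12 libraries, 4 group means being estimated. Library sizes were the totals recovered. Sequences needed 1 RPM on average, and all had it. Adjustment was over all 2971 sequences. The biological coefficient of variation was 0.326. SE is the size of the log2 fold change over the square root of F. Ratios of single sequences were tested by exact two-sided permutation (scipy 1.17.1). Same-numbered libraries of the 2 control-diet groups had correlations of 0.547, 0.143 and 0.522 between their deviations from group means. In each other pair of groups at least 1 correlation was under 0.1. Deviations from a mean of 3 libraries are not independent of each other, so these values do not establish a pairing. The main fit treated the libraries as unpaired. The scripts were tested on simulated data. Alternatives were TMM and median-ratio scaling, a floor of 10 RPM, only the groups compared, the replicate number as a block, each library left out, DESeq2 1.42.0 and limma 3.58.1 on log2(RPM + 1). The floor for 0 counts, 3 counts, was 0.437 to 1.36 RPM by library. It covers counting error alone, because no molecular identifiers mark single molecules.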

Additional observations from a re-analysis of the deposited data

Results flagged for a closer look

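T1G at 29 nt was picked out because every low-protein library was above every control-diet library in wild type and below every one in ATF7+/-. Its interaction of diet with genotype was -0.973 on the log2 scale (SE 0.31, adjusted p = 0.402 by edgeR's quasi-likelihood test), so the difference between genotypes did not pass. T1G at 28 nt met the same condition, with an interaction of -1.08 (SE 0.31, adjusted p = 0.305 by the same test). The share of all sequences that meet this condition is not given. Both sequences come from the same libraries and differ by 1 base in length.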

How the results depend on the processing

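The counts of short fragments past the threshold moved with the processing. The share of all sequences past it is given for only some of these settings. For diet in wild type that share was 19.4% without replicate 3 of wild type on control diet. For genotype on low protein diet it was 12.6% with only the groups compared. For diet in wild type the count was 1 by DESeq2 and 0 to 8 with 1 library left out, the 8 arising without replicate 3 of wild type on control diet. For genotype on low protein diet it was 1 with TMM, 1 with median-ratio scaling, 1 with a floor of 10 RPM, 3 by DESeq2, 9 with only the groups compared, 8 with replicates 1 and 2 on control diet left out of both genotypes, and 0 to 1 with 1 library left out. For diet over both genotypes it was 0 to 1 with 1 library left out. In the other comparisons it was 0 throughout. The cause was not tested.

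The 29-nt fragment changed direction in 5 of the 6 comparisons. Leaving out replicates 1 and 2 on control diet keeps 1 library in each control-diet group. In that setting the log2 fold change of the 29-nt fragment was -0.045 for diet in wild type and -0.19 for genotype on control diet. It was 0.057 for the interaction and -0.016 for diet over both genotypes. For diet in ATF7+/- it was -0.050 with TMM, -0.068 with median-ratio scaling and -0.053 to 0.056 with 1 library left out. With 1 library left out, the log2 ratio of the 29-nt to the 30-nt fragment ran from -0.0020 to 0.45 for diet in ATF7+/-, from -0.19 to 0.33 for genotype on control diet and from -0.031 to 0.14 for genotype on low protein diet, and that of the 33-nt to the 29-nt fragment from -0.37 to 0.0032 for genotype on control diet.

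With the replicate block the count was 0 in all 6 comparisons, so it changed no call. No label says that the shared replicate numbers mark a batch. The rarest of the 292 had 248 counts over the 12 libraries, and depth limits the precision of such sequences.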
